A study of Mus musculus with 8 samples.

Results

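The secreted WNT, BMP/GDF, FGF and hedgehog ligands, with the antagonists that bind or block them, were examined in spermatogonia of mouse testis at postnatal day 7. The members were chosen by gene symbol: every numbered Wnt, Fgf, Bmp, Gdf, Sfrp and Dkk gene except the oocyte factors Gdf9 and Bmp15, plus Shh, Ihh, Dhh, Nog, Chrd, Grem1 and Frzb. This gave 75 members of the 23343 gene symbols in the tables, of which 36 had enough counts to enter the test of 14907 genes. They comprised 19 WNT ligands (9 tested), 9 WNT antagonists (6 tested), 19 BMP and GDF genes (9 tested), 3 BMP antagonists (1 tested), 22 FGF genes (9 tested) and 3 hedgehog ligands (2 tested).

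The 4 groups were Thy1+ spermatogonia of genotype PRC1dKO and of genotype PRC1ctrl, and cKit+ spermatogonia of genotype PRC1dKO and of genotype PRC1ctrl, all from C57BL/6 mice, with 2 libraries in each; they are called Thy1 dKO, Thy1 control, cKit dKO and cKit control below. PRC1, Polycomb repressive complex 1, is a histone-ubiquitinating repressor of developmental genes. The labels do not spell out the deleted genes, the deleter strain, what the control mice carry, or whether the 2 libraries of a group came from different animals, so p-values measure the spread between these libraries, which may be technical. Thy1 marks a spermatogonial fraction rich in stem and progenitor cells, and cKit, the receptor of stem cell factor, marks differentiating spermatogonia.

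WNT proteins signal through Frizzled receptors, either to beta-catenin or by routes that do not use it, and SFRP proteins bind WNTs outside the cell. BMPs and GDFs act through paired serine/threonine kinase receptors to SMAD proteins, and FGFs act through receptor tyrosine kinases to the MAP kinase pathway. Hedgehog ligands bind Patched and release Smoothened. In the mouse testis, Sertoli cells make desert hedgehog, which Leydig cells need, and FGF2 is a standard growth factor in cultures of mouse spermatogonial stem cells. Genes of these families are textbook Polycomb targets in mouse embryonic stem cells.

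Library totals ran between 6763908 and 10976869 counts. Rnf2 and Ring1, which encode the ubiquitin ligases of PRC1, had mean levels of 127 and 3.88 CPM (counts scaled to a common library size after TMM normalization) in Thy1 dKO against 112 and 2.93 CPM in Thy1 control. In cKit dKO the means were 138 CPM for Rnf2 and 8.04 CPM for Ring1, against 135 and 4.87 CPM in cKit control. No difference of either gene passed the test (edgeR quasi-likelihood, Benjamini-Hochberg adjusted p between 0.30 and 0.91), and a count over a whole transcript does not check a deleted exon. Kit averaged 994 ± 78.5 CPM in cKit control and 309 ± 11.3 CPM in Thy1 control (SD, n = 2 each), while Gfra1, a receptor subunit of spermatogonial stem cells, averaged 1.70 ± 0.416 and 35 ± 6.58 CPM. The libraries also held RNA of genes that mark somatic testis cells. The summed level of 9 Leydig markers was 3760 to 4200 CPM in Thy1 dKO, 2560 to 3180 CPM in Thy1 control, 15400 to 18000 CPM in cKit dKO and 11100 to 13300 CPM in cKit control, and that of 12 peritubular and stromal markers was 11700 to 12100, 10400 to 14000, 5030 to 6280 and 3150 to 3230 CPM in the same order. None of these 21 markers was at 0 in any library. The sums of 19 germ cell markers, Kit among them, were 1940 to 2180, 2440 to 2670, 1500 to 1590 and 2380 to 2850 CPM in that order. The word spermatogonia here and below names the sorted fraction as labelled. Which cells in a fraction the members' RNA came from was not tested.

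The members together held a small share of the RNA, and Sfrp1 was the largest part of it in every library. Their summed counts were 0.225% and 0.222% of the library in cKit dKO, against 0.148% in both cKit control libraries. In Thy1 dKO the shares were 0.128% and 0.127%, against 0.134% and 0.107% in Thy1 control. Sfrp1, a secreted Frizzled-related protein that binds WNTs, made up between 45.8% and 64.6% of the members' counts in a library. Without it the members summed to 862 and 971 CPM in cKit dKO, against 566 and 561 CPM in cKit control. In Thy1 dKO that sum was 602 and 666 CPM, against 646 and 545 CPM in Thy1 control.

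On the scale that divides by transcript length (the deposited RPKM values), the highest member by its mean over the 8 libraries was Sfrp1 at 58.7 RPKM, followed by Bmp2 at 9.72, Sfrp2 at 8.48, Wnt6 at 8.02, Wnt5a at 5.61, Bmp4 at 4.26 and Bmp7 at 3.32 RPKM. Fgf2 came next at 3.08 RPKM, Wnt2b at 3.05 and Bmp1 at 2.88 RPKM. Sfrp1 stood clear of every other member in every library. Below it the order depended on the population, since Bmp2 averaged 20.5 ± 6.56 RPKM in cKit dKO and 11.7 ± 5.07 RPKM in cKit control but 4.39 ± 1.23 RPKM in Thy1 dKO and 2.30 ± 1.15 RPKM in Thy1 control (SD, n = 2 each). Wnt5a ran the other way, at 6.57 ± 0.421 RPKM in Thy1 dKO and 7.69 ± 1.73 RPKM in Thy1 control but 4.49 ± 0.239 RPKM in cKit dKO and 3.68 ± 0.824 RPKM in cKit control. RPKM values were summed over the transcript entries of a symbol, and Wnt5a has 2 entries. Reads that fall in both may stand more than once in its RPKM and its counts, which could raise its place. From Bmp7 to Bmp1 the means over the 8 libraries lay close together, and their order was not tested. Within a group these genes could differ: in cKit control Bmp7 averaged 4.59 ± 0.366 RPKM and Fgf2 1.53 ± 0.484 RPKM (SD, n = 2 each). The short transcript entry to which Fgf2 reads were assigned gives it a higher place by RPKM than by counts, since 1 RPKM of Fgf2 stood for 18 counts and 1 RPKM of Bmp2 for 92.2 counts.

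**Figure D1:**
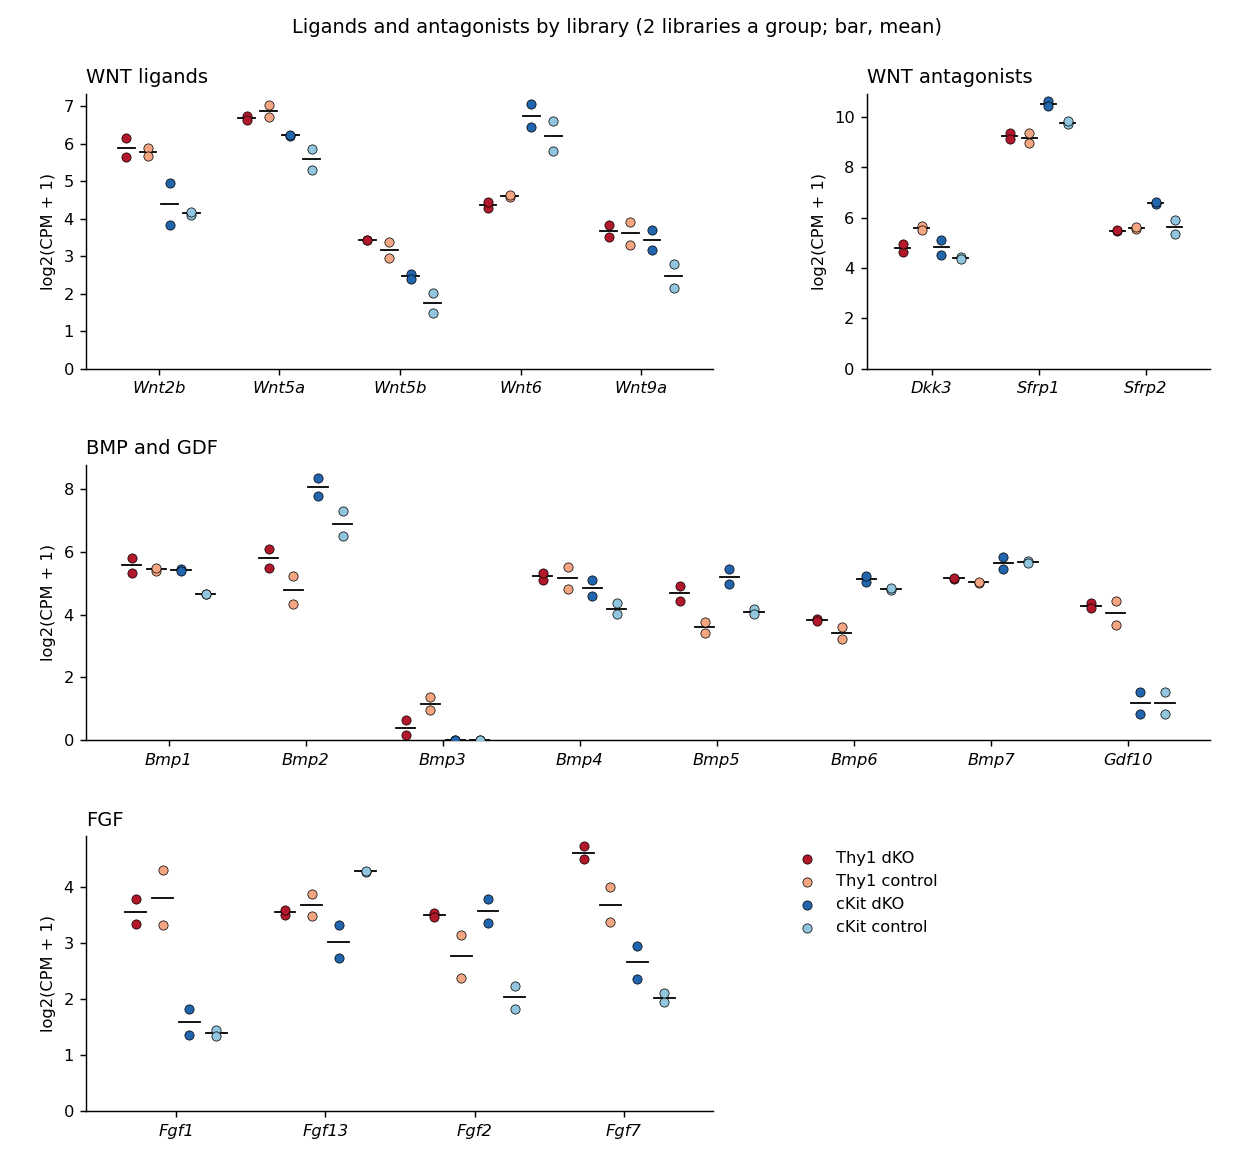
Each point is 1 library of a named member, on a log2(CPM + 1) axis, with a bar at the group mean and the groups in the order Thy1 dKO, Thy1 control, cKit dKO and cKit control. Sfrp1 lies highest, Bmp2, Wnt6 and Bmp6 lie higher in both cKit groups, and Gdf10 and Fgf1 lie lower in both.

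In cKit+ spermatogonia, 8 of the 36 tested members were higher in dKO than in control and 1 was lower. The higher ones were the WNT antagonists Sfrp1 and Sfrp2, the WNT ligands Wnt5a and Wnt9a, the BMP genes Bmp1, Bmp2 and Bmp5, and Fgf2, by 1.55-fold to 3.46-fold. Fgf13 was the member that was lower, at 0.397 of its control level. In the same comparison 28.6% of all genes tested passed the threshold, 13.2% higher and 15.4% lower. The members' shares were 25% in either direction, 22.2% higher and 2.78% lower, so their total was near the background. The median log2 difference of the 36 tested members was 0.64, against 0.03 over all genes tested. With library totals in place of TMM, the calls over all genes split into 1278 higher and 3007 lower, against 1965 higher and 2294 lower with TMM, and with the deposited RPKM values (pseudocount 0.1) into 443 higher and 4042 lower.

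In the same comparison, many genes that mark somatic cells were higher and most genes that mark germ cells were lower. Past the threshold were 7 of 13 tested Sertoli markers higher and 1 lower, 6 of 9 Leydig markers higher and 1 lower, 8 of 12 peritubular and stromal markers higher, 5 of 9 endothelial markers higher, 0 of 9 macrophage markers, and 14 of 19 germ cell markers lower (edgeR). Of the macrophage markers 1 had an unadjusted p under 0.05, and DESeq2 called 0. Germ cell markers summed to 1500 to 1590 CPM in cKit dKO and 2380 to 2850 CPM in cKit control, and Sertoli markers to 1760 to 1810 and 1400 to 1440 CPM. The germ cell sum includes Kit, at 1059 and 1012 CPM in cKit dKO and 1049 and 938 CPM in cKit control. It therefore shows less of a fall than the median log2 difference of the 19 germ cell markers, -1.44. The part of these markers in the members' differences was not tested, and in bulk RNA fewer cells of a type and less RNA per cell cannot be told apart.

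Among the WNT antagonists, Sfrp1 (chr8:23411502-23449632, mm10, plus strand) had 1574 and 1395 CPM in cKit dKO, against 839 and 919 CPM in cKit control. Both dKO libraries lay above both control libraries, by a log2 difference of 0.76 ± 0.13 (SE; adjusted p = 0.00049, edgeR); limma on the RPKM values did not call it (adjusted p up to 0.082). Sfrp2 (chr3:83766321-83774314, plus strand), a second secreted Frizzled-related protein, had 93.0 and 97.4 CPM in cKit dKO, against 40.2 and 59.7 CPM in cKit control. Its groups did not overlap either, with a log2 difference of 0.94 ± 0.17 (SE; adjusted p = 0.00078, edgeR). Dkk3, a divergent member of the Dickkopf family, had 22.2 and 34.0 CPM in cKit dKO, against 20.5 and 19.4 CPM in cKit control, and the difference did not pass (log2 0.49 ± 0.22 SE, adjusted p = 0.10, edgeR). Sfrp4, Frzb and Dkk2 also did not pass, and each was under 11 CPM in every library.

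Among the WNT ligands, Wnt5a (chr14:28505473-28525515, plus strand), which signals mainly without beta-catenin, had 73.3 and 74.0 CPM in cKit dKO, against 38.5 and 57.2 CPM in cKit control. The log2 difference was 0.63 ± 0.17 (SE; adjusted p = 0.013, edgeR), and it did not pass without the first cKit control library (adjusted p = 0.17) or with limma on RPKM (up to 0.31). Wnt9a (chr11:59306930-59333552, plus strand), known for its role at forming limb joints, had 8.01 and 12.1 CPM in cKit dKO, against 5.89 and 3.44 CPM in cKit control. Its call was the weakest of the 9, with a log2 difference of 1.08 ± 0.37 (SE; adjusted p = 0.041, edgeR), and it was lost without the second cKit control library, the second cKit dKO library or either Thy1 dKO library (adjusted p up to 0.19). It was also lost with library totals, with the 4 cKit libraries alone, with the highest entry per symbol and on RPKM (adjusted p up to 0.25). Wnt6, which Sertoli cells of the mouse testis are known to make, had 85.7 and 132 CPM in cKit dKO, against 54.6 and 95.7 CPM in cKit control. These groups overlapped and the difference did not pass (log2 0.55 ± 0.23 SE, adjusted p = 0.088, edgeR). Wnt6 was called higher with no filter on low counts and with the replicate block. Wnt5b, the closest relative of Wnt5a, had 4.80 and 4.24 CPM in cKit dKO, against 1.82 and 3.06 CPM in cKit control, and did not pass either (adjusted p = 0.12, edgeR). Its 3 transcript entries carry identical counts, so the same reads stand in its sum more than once, and it overlaps Fbxl14 on the other strand.

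Among the BMP genes, Bmp2 (chr2:133552159-133562896, plus strand), a ligand that signals through SMAD proteins, had 220 and 327 CPM in cKit dKO, against 156 and 89.6 CPM in cKit control. The log2 difference was 1.15 ± 0.28 (SE; adjusted p = 0.0059, edgeR), and without the second cKit control library the adjusted p was 0.052. DESeq2 and limma on RPKM did not call Bmp2 either (adjusted p up to 0.11). Bmp5 (chr9:75775365-75899017, plus strand), of the same ligand group as Bmp6 and Bmp7, had 42.6 and 30.7 CPM in cKit dKO, against 17.0 and 15.3 CPM in cKit control. Its log2 difference was 1.18 ± 0.24 (SE; adjusted p = 0.0020, edgeR) and passed in each of the 8 fits that left out 1 library. Bmp1 (chr14:70474555-70520260, minus strand) is not a ligand in spite of its name but a metalloprotease that cuts procollagen and Chordin. It had 42.6 and 40.6 CPM in cKit dKO, against 24.2 and 24.5 CPM in cKit control, a log2 difference of 0.77 ± 0.18 (SE; adjusted p = 0.0057, edgeR), which limma on RPKM did not call (up to 0.24). Bmp6 and Bmp7 differed by less: Bmp6 averaged 34.2 ± 3.09 CPM in cKit dKO and 27.4 ± 1.08 CPM in cKit control, and Bmp7 averaged 49.6 ± 9.35 and 50.02 ± 1.27 CPM (SD, n = 2 each). Bmp4, which drives differentiation of mouse spermatogonia in culture, had 33.5 and 23.1 CPM in cKit dKO, against 19.8 and 15.2 CPM in cKit control, just outside the threshold (log2 0.68 ± 0.26 SE, adjusted p = 0.059, edgeR). It was called higher in 5 of 11 other settings: DESeq2, DESeq2 size factors, upper quartile scaling, no filter on low counts and the replicate block.

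Among the FGF genes, Fgf2 (chr3:37348653-37404830, plus strand) had 12.8 and 9.25 CPM in cKit dKO, against 3.72 and 2.55 CPM in cKit control. This was the largest fold of the 9 called members, 3.46-fold, with a log2 difference of 1.79 ± 0.39 (SE; adjusted p = 0.0033, edgeR). Fgf13 (chrX:59062150-59134436, minus strand) encodes an FGF-homologous factor that stays inside the cell and binds sodium channels rather than FGF receptors. It had 8.96 and 5.65 CPM in cKit dKO, against 18.4 and 18.5 CPM in cKit control, a log2 difference of -1.33 ± 0.29 (SE; adjusted p = 0.0033, edgeR). Fgf2 and Fgf13 both passed in each fit that left out 1 library. The hedgehog ligand Dhh had 11.05 and 10.4 CPM in cKit dKO, against 6.32 and 4.72 CPM in cKit control, and did not pass (log2 0.94 ± 0.36 SE, adjusted p = 0.062, edgeR). With DESeq2 size factors in place of TMM it was called higher. Shh was at 1.76 CPM or less in every library, and Ihh did not enter the test.

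**Figure D2:**
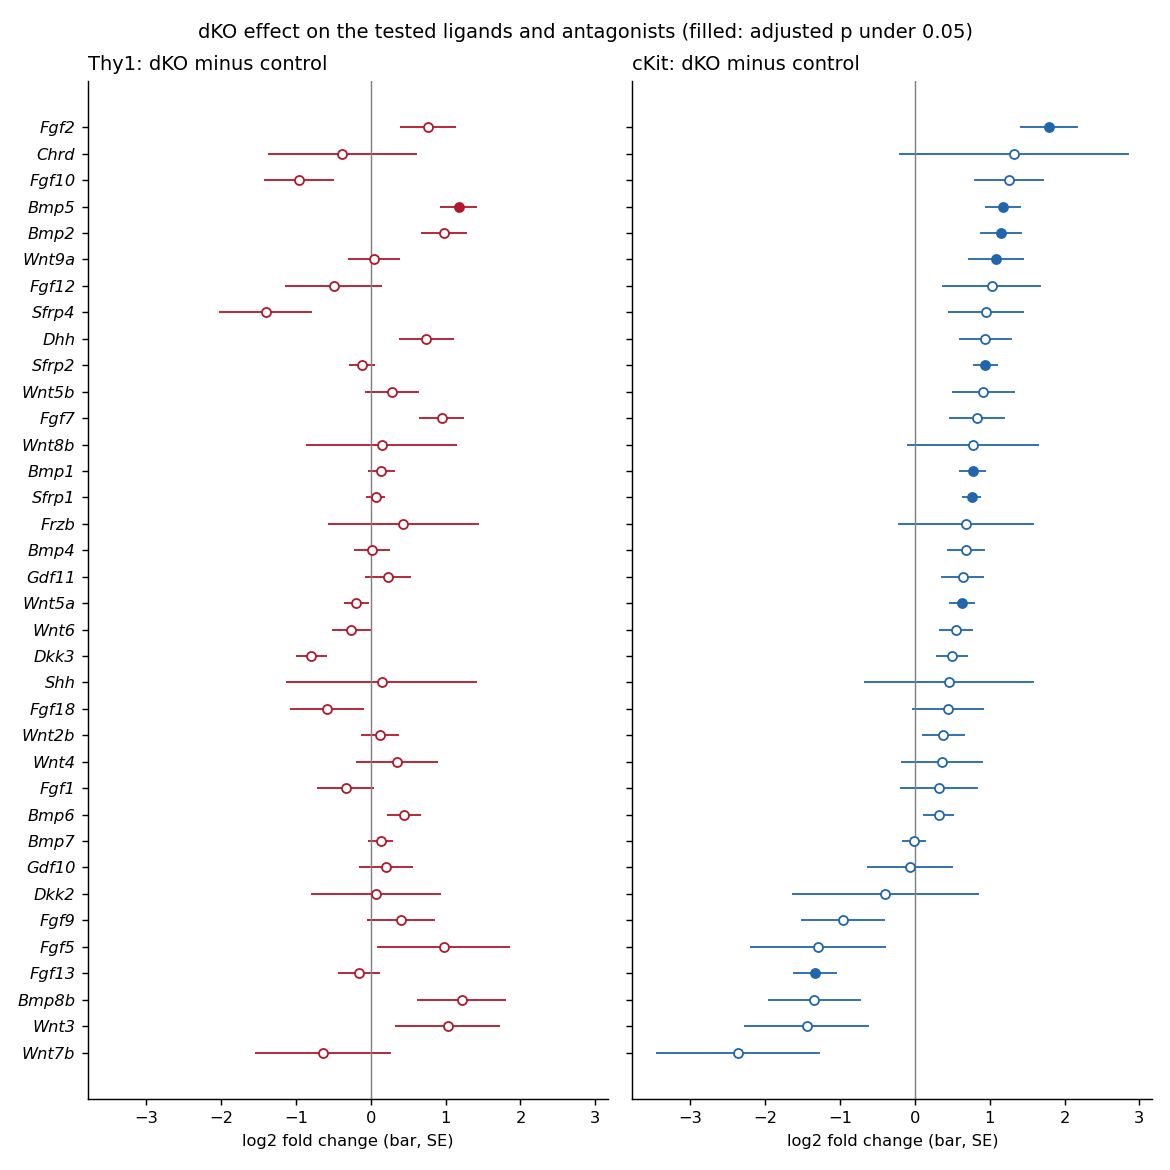
Points give the log2 fold change of dKO over control for the tested members in Thy1+ and in cKit+ spermatogonia, bars are SE, and filled points passed the threshold. In cKit+ spermatogonia 8 filled points lie above 0 and that of Fgf13 lies below, while in Thy1+ spermatogonia only Bmp5 is filled.

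RefSeq promoter windows (GRCm38.p6, 250 bases before to 50 after the annotated start) are shown for the members that passed in cKit dKO and whose window matches the start in the deposited tables, because CpG-dense promoters are the usual binding places of PRC1. They are written 5′ to 3′ on the gene's strand, with each CpG in capitals. The windows are chr9:75775115-75775414 (plus strand) for Bmp5, chr3:83766071-83766370 (plus) for Sfrp2, chr3:37348403-37348702 (plus) for Fgf2, chr11:59306680-59306979 (plus) for Wnt9a and chrX:59134387-59134686 (minus) for Fgf13.
Bmp5: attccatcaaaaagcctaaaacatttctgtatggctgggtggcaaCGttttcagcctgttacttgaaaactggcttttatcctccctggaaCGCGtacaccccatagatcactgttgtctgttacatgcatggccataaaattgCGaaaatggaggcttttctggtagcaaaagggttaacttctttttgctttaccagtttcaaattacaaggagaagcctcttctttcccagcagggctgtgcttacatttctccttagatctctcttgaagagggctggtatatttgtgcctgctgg
Sfrp2: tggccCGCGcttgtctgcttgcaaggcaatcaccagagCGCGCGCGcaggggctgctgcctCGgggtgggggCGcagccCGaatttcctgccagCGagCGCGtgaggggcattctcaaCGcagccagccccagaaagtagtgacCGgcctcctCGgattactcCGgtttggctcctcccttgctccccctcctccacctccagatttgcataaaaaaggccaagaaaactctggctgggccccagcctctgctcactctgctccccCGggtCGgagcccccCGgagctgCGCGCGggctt
Fgf2: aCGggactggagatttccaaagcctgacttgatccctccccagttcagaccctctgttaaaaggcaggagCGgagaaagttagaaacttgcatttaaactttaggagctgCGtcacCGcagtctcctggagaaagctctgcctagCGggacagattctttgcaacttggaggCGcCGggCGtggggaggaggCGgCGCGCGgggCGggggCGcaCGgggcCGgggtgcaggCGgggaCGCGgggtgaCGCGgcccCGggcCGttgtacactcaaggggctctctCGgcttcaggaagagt
Wnt9a: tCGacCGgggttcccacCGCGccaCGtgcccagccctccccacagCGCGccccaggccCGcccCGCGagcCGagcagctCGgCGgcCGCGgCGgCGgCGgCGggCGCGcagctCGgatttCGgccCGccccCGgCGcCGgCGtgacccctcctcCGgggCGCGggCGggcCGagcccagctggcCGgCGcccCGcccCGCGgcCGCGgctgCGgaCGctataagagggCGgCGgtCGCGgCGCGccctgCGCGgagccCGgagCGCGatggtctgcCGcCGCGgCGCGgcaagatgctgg
Fgf13: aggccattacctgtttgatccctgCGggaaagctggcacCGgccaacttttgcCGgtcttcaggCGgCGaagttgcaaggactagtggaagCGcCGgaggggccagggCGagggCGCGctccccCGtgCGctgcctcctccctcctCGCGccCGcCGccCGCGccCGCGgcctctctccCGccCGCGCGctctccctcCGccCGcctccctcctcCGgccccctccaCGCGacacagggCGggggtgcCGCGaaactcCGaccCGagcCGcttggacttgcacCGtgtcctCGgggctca

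The 5 members shown, of the 9 called, differed widely in CpG counts; Sfrp1, Bmp1, Bmp2 and Wnt5a were not examined here. The letters CG, which read the same on both strands, occurred 4 times in the Bmp5 window, 22 times in that of Sfrp2, 24 times in that of Fgf2, 37 times in that of Fgf13 and 58 times in that of Wnt9a. Of all 16333 promoter windows of this length, 76.3% held at least as many CpG as Bmp5, 32.0% as many as Sfrp2, 27.6% as many as Fgf2, 7.24% as many as Fgf13 and 0.147% as many as Wnt9a. Over the 52 members with a window, the median was 21 CpG, against 14 over all windows, and 27 of the 52 (51.9%) held 20 or more, against 37.0% of all windows. Among the 26 tested members of these the median was 23.5 and 65.4% held 20 or more. Among the 26 untested ones the median was 15 and the share 38.5%, near that of all windows. All windows include genes that did not enter the test. Fgf13, the member that was lower in cKit dKO, and Wnt9a, the one with the weakest call among those that were higher, had the most CpG of the 5 shown.

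In Thy1+ spermatogonia, 1 of the 36 tested members passed: Bmp5 was higher in dKO. Of all genes tested 0.624% passed in this comparison, 0.362% higher and 0.262% lower, against 2.78% of the tested members, which is a single gene. No member passed lower in the main edgeR fit, 1 (Dkk3) did in DESeq2, and 5 members in either direction had an unadjusted p under 0.05. The median log2 difference was 0.14 over the tested members and 0.03 over all genes tested.

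Bmp5 had 29.5 and 20.7 CPM in Thy1 dKO, against 12.6 and 9.74 CPM in Thy1 control. Both dKO libraries lay above both controls, as in cKit+ spermatogonia, with a log2 difference of 1.17 ± 0.25 (SE; adjusted p = 0.048, edgeR). The call was lost without any 1 of the 4 Thy1 libraries or either cKit control library (adjusted p up to 0.41), and with the highest entry per symbol or on RPKM (up to 0.19). Fgf7, a mesenchymal factor that signals through a splice form of Fgfr2, had 21.5 and 25.6 CPM in Thy1 dKO, against 9.34 and 15.0 CPM in Thy1 control (log2 0.95 ± 0.30 SE, adjusted p = 0.16, edgeR). Bmp2 had 44.4 and 67.2 CPM in Thy1 dKO, against 37.1 and 19.5 CPM in Thy1 control (log2 0.98 ± 0.31 SE, adjusted p = 0.15, edgeR). For both genes the groups did not overlap, but neither difference passed in the main edgeR fit. With only the 4 Thy1 libraries in the fit both were called higher, and Bmp2 also with no filter on low counts. Dkk3 had 24.2 and 30.4 CPM in Thy1 dKO, against 49.8 and 44.8 CPM in Thy1 control (log2 -0.80 ± 0.21 SE, adjusted p = 0.085, edgeR). It was called lower with DESeq2, with no filter on low counts and with only the 4 Thy1 libraries in the fit. Sfrp1, at 657 and 564 CPM in Thy1 dKO against 660 and 508 CPM in Thy1 control, and Sfrp2, at 43.7 and 44.4 CPM against 46.5 and 48.8 CPM, did not pass (adjusted p = 0.88 and 0.82, edgeR). In this comparison 1 of 13 tested Sertoli, 2 of 9 Leydig and 1 of 9 endothelial markers were higher (edgeR). Of 19 germ cell markers 3 were lower. The median log2 differences of these lists were 0.09, 0.46, 0.79 and -0.23 in that order. Of stromal markers 0 of 12 passed (median log2 -0.20), and of macrophage markers 0 of 9 (0.40). DESeq2 called 2 Sertoli, 4 Leydig, 2 endothelial and 1 stromal marker higher, and 1 Leydig, 1 stromal and 5 germ cell markers lower. The part of these markers was not tested.

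The dKO effect itself differed between the populations for 3 members, which were placed among the WNT antagonists by gene symbol. The test of the difference (effect in cKit+ minus effect in Thy1+ spermatogonia) passed for Dkk3 (log2 1.29 ± 0.30 SE, adjusted p = 0.020, edgeR), Sfrp2 (1.05 ± 0.24, adjusted p = 0.018) and Sfrp1 (0.69 ± 0.18, adjusted p = 0.034). That is 8.33% of the tested members, against 5.92% of all genes tested, 1.86% with the more positive effect in cKit+ and 4.06% with the more positive effect in Thy1+ spermatogonia. For Sfrp1 and Sfrp2 the difference comes with a rise in cKit dKO, whereas for Dkk3 neither single effect passed in the main edgeR fit and the values differ in sign. The lower level of Dkk3 in Thy1 dKO did pass in other settings, as given above. The calls were lost without the first library of Thy1 control, Thy1 dKO or cKit control for Dkk3 (adjusted p up to 0.13), without those libraries or the second Thy1 dKO library for Sfrp1 (up to 0.18), and without those 4 or the second Thy1 control library for Sfrp2 (up to 0.094). All 3 were also lost with the highest entry per symbol and on RPKM, and that of Sfrp1 with library totals as well (adjusted p up to 0.37). Of all calls of this test, 31.5% had the more positive effect in cKit+ spermatogonia with TMM, against 15.1% with library totals and 3.51% on RPKM (pseudocount 0.1). For Bmp5 the effects were 1.18 in cKit+ and 1.17 in Thy1+ spermatogonia on the log2 scale, a difference of 0.01 ± 0.37 (SE). Wnt5a, with a difference of 0.83 ± 0.24 (SE), lay just outside (adjusted p = 0.055, edgeR). It passed with DESeq2, DESeq2 size factors, upper quartile scaling, no filter on low counts and the replicate block. In the same contrast 7 of 12 peritubular and stromal markers passed with the more positive effect in cKit+ spermatogonia and 10 of 19 germ cell markers with the more negative effect there; their part was not tested.

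Between the 2 control populations, the direct comparison of cKit+ with Thy1+ spermatogonia, 15 of the 36 tested members passed: 5 were higher in cKit control (13.9%) and 10 lower (27.8%), against 19.7% of all genes tested, 9.46% higher and 10.3% lower. The members' share was 41.7%. The median log2 difference was -0.07 over the tested members and 0.01 over all genes tested, so the members moved in both directions.

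Higher in cKit control than in Thy1 control were Bmp2, Bmp6, Bmp7, Wnt6 and Sfrp1. Bmp2 had 156 and 89.6 CPM in cKit control, against 37.1 and 19.5 CPM in Thy1 control (log2 2.13 ± 0.30 SE, adjusted p = 0.00011, edgeR). Wnt6 had 54.6 and 95.7 CPM in cKit control, against 23.0 and 23.9 CPM in Thy1 control (log2 1.67 ± 0.25 SE, adjusted p = 0.00016, edgeR). Bmp6 had 26.7 and 28.2 CPM in cKit control, against 8.28 and 11.3 CPM in Thy1 control (log2 1.48 ± 0.22 SE, adjusted p = 0.00017, edgeR). In each of these 3 genes the lowest cKit control library lay at more than 2 times the highest Thy1 control library. Bmp7 and Sfrp1 differed by less, at log2 0.65 ± 0.16 (SE; adjusted p = 0.010, edgeR) and 0.59 ± 0.13 (SE; adjusted p = 0.0037, edgeR). The call of Sfrp1 was lost without the second Thy1 control library (adjusted p = 0.069), and that of Bmp7 without either Thy1 control library or the first cKit control library (up to 0.078).

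Lower in cKit control were 4 WNT ligands, 3 BMP and GDF genes, 2 FGF genes and Dkk3. Gdf10, a close relative of Bmp3, had 1.91 and 0.766 CPM in cKit control, against 20.6 and 11.9 CPM in Thy1 control (log2 -3.52 ± 0.45 SE, adjusted p = 3.8e-05, edgeR). Bmp3 itself, which opposes BMP signalling, was not among the tested genes: it had 0 counts in both cKit control and both cKit dKO libraries, against 12 and 8 counts in Thy1 control. Taking 3 counts over the group as the limit that a count of 0 allows, it was at least 8.01-fold lower in cKit control. That figure covers the counting error of the 0 only and takes the Thy1 control counts as exact. Bmp3 did not enter the main edgeR fit, and it was called lower in cKit control with no filter on low counts. Fgf1, acidic FGF, had 1.73 and 1.53 CPM in cKit control, against 18.7 and 9.04 CPM in Thy1 control (log2 -3.06 ± 0.45 SE, adjusted p = 0.00014, edgeR). Fgf7 had 2.86 and 3.32 CPM in cKit control, against 9.34 and 15.0 CPM in Thy1 control (log2 -1.99 ± 0.34 SE, adjusted p = 0.00063, edgeR). Fgf1 and Fgf7 overlap Gm5820 and Fam227b on the other strand, and the strand setting of the counts is not given in the sources used here.

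The WNT ligands that were lower in cKit control were Wnt5b, Wnt2b, Wnt5a and Wnt9a, by log2 -1.75 ± 0.40, -1.71 ± 0.27, -1.29 ± 0.17 and -1.28 ± 0.37 (SE; adjusted p = 0.0054, 0.00032, 5.7e-05 and 0.022, edgeR). Wnt2b, a ligand of the beta-catenin branch, had 16.1 and 17.2 CPM in cKit control, against 58.4 and 50.5 CPM in Thy1 control. Wnt5a had 38.5 and 57.2 CPM in cKit control, against 130 and 103 CPM in Thy1 control. Dkk3 had 20.5 and 19.4 CPM in cKit control, against 49.8 and 44.8 CPM in Thy1 control (log2 -1.24 ± 0.21 SE, adjusted p = 0.00052, edgeR). The remaining calls were Bmp4, at log2 -1.03 ± 0.25 (SE; adjusted p = 0.0087, edgeR), and Bmp1, at -0.81 ± 0.18 (SE; adjusted p = 0.0047, edgeR). The call of Bmp4 was lost without the first Thy1 control or the second cKit control library (adjusted p up to 0.18), that of Wnt9a without either of the same libraries (up to 0.22), and that of Wnt5b without the first Thy1 control or the first cKit control library (up to 0.069). With the highest entry per symbol the calls of Wnt5b (adjusted p = 0.074) and Wnt9a were lost, and on RPKM those of Wnt9a, Bmp4 and Bmp1 (up to 0.099); that of Bmp1 was also lost with the replicate block. As given above, the summed counts of Wnt5b hold the same reads 3 times. In the same comparison 12 of 12 peritubular and stromal markers and 7 of 9 macrophage markers were lower in cKit control, and 8 of 9 Leydig markers were higher; the part of these markers was not tested.

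**Figure D3:**
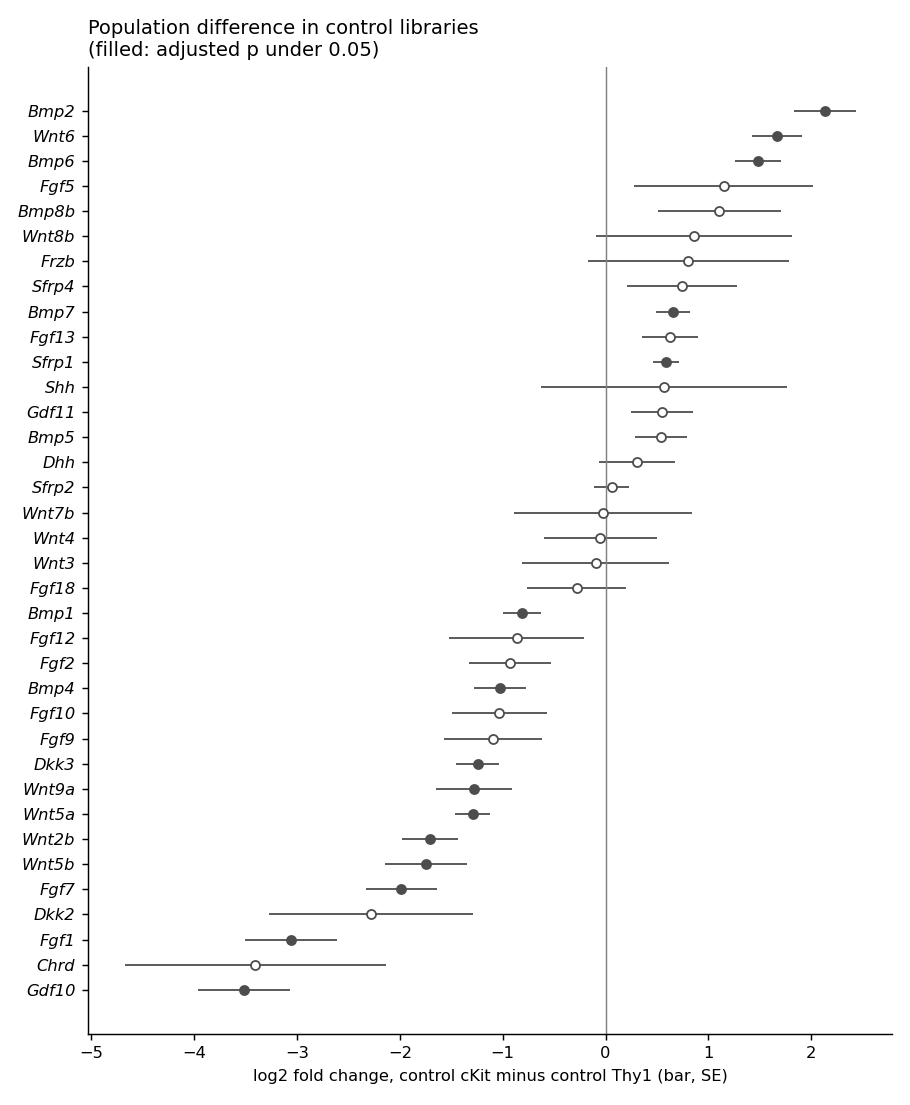
Points give the log2 fold change of cKit control over Thy1 control for the 36 tested members, ordered by size, with bars for SE and filled points for those that passed the threshold. Bmp2 is the highest at 2.13 and Gdf10 the lowest at -3.52.

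Bmp1, Wnt5a and Wnt9a were lower in cKit control than in Thy1 control and higher in cKit dKO than in cKit control. Wnt5a averaged 73.7 ± 0.501 CPM in cKit dKO, between 47.8 ± 13.2 CPM in cKit control and 116 ± 18.5 CPM in Thy1 control (SD, n = 2 each). Bmp1 averaged 41.6 ± 1.39 CPM in cKit dKO, 24.4 ± 0.177 CPM in cKit control and 42.8 ± 2.18 CPM in Thy1 control. Bmp2 and Sfrp1 were higher in cKit control than in Thy1 control and higher again in cKit dKO. Both comparisons use the cKit control libraries.

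The other genes of the 4 pathways were taken from lists of receptors, transducers and targets, and their counts stand beside 13.2% of all genes tested higher and 15.4% lower in cKit dKO, with a median log2 difference of 0.03. In the same comparison the median log2 difference was 0.81 for Sertoli, 0.52 for Leydig, 0.84 for peritubular and stromal, 1.01 for endothelial and 0.38 for macrophage markers. For germ cell markers it was -1.44. The part of these markers in the differences of the lists was not tested. Of 10 tested genes for FGF feedback and targets, 9 were higher in cKit dKO (90%) and 0 lower in edgeR and in DESeq2, and no unadjusted p under 0.05 was lower either, with a median log2 difference of 0.98. Etv5, an ETS factor of spermatogonial self-renewal in the mouse, averaged 107 ± 13.1 CPM in cKit dKO and 42.7 ± 3.53 CPM in cKit control (SD, n = 2 each; log2 1.32 ± 0.14 SE, adjusted p = 1.3e-05, edgeR). Etv1, a related ETS factor, averaged 66.1 ± 9.36 and 29.1 ± 6.55 CPM (log2 1.19 ± 0.20 SE, adjusted p = 0.00050, edgeR). The feedback inhibitors Spry4 and Spry2 were higher by log2 0.96 ± 0.15 and 0.99 ± 0.16 (SE; adjusted p = 0.00024 and 0.00029, edgeR). Of 6 FGF receptor genes 1 was higher (16.7%), Fgfr2 (log2 0.51 ± 0.15 SE), and 1 lower, Fgfr3 (-1.80 ± 0.46 SE), shares near those of all genes. The count of higher FGF feedback genes was 7 to 8 when 1 library was left out and 6 to 9 with the other settings, 6 being on RPKM.

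Of 13 genes for hedgehog reception and targets, 8 were higher in cKit dKO (61.5%) and 1 lower (7.69%), with a median log2 difference of 0.58. Ptch1, the hedgehog receptor and itself a target, averaged 845 ± 143 CPM in cKit dKO and 439 ± 73.8 CPM in cKit control (SD, n = 2 each; log2 0.94 ± 0.14 SE, adjusted p = 0.00016, edgeR). Gli1, a target and effector, averaged 80.8 ± 10 and 39.2 ± 3.47 CPM (log2 1.04 ± 0.15 SE, adjusted p = 0.00016, edgeR). Hhip, a decoy for the ligands, was higher by log2 1.25 ± 0.19 (SE; adjusted p = 0.00022, edgeR). The gene that was lower was Gli3, mainly a repressor, at 75 ± 9.83 CPM in cKit dKO and 157 ± 17.4 CPM in cKit control (log2 -1.07 ± 0.14 SE, adjusted p = 6.2e-05, edgeR). The count of higher hedgehog genes was 7 to 8 with 1 library left out and 3 to 8 with the other settings, 3 being on RPKM. In Thy1 dKO 1 of the 13 was higher, Cdon.

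Of 18 WNT receptor genes, 7 were higher in cKit dKO (38.9%) and 1 lower (5.56%), with a median log2 difference of 0.45. The lower one was Fzd10, at 0.794 ± 0.236 CPM in cKit dKO and 7.23 ± 0.789 CPM in cKit control (SD, n = 2 each; log2 -3.16 ± 0.58 SE, adjusted p = 0.00098, edgeR). Fzd8, Fzd7 and Fzd2 were higher by log2 1.25 ± 0.24, 0.93 ± 0.19 and 0.98 ± 0.21 (SE; adjusted p = 0.0013, 0.0020 and 0.0029, edgeR). Of 16 tested WNT transducers and targets 4 were higher (25%) and 2 lower (12.5%; median log2 -0.03), among them the transcription factors Tcf7l2 (log2 0.88 ± 0.12 SE) and Tcf7 (-0.99 ± 0.17 SE). Of 12 genes in the BMP receptor list 4 were higher (33.3%) and 3 lower (25%, median log2 0.37). That list also holds Tgfbr1, among the lower, and Tgfbr2, both receptors of TGF-beta. Eng, among the higher, stands in the endothelial list as well. Of 10 BMP transducers and targets 2 were higher (20%) and 1 lower (10%, median log2 0.31). Id3, a direct BMP target, averaged 77.0 ± 12.4 CPM in cKit dKO and 33.1 ± 1.89 CPM in cKit control (log2 1.22 ± 0.17 SE, adjusted p = 9.1e-05, edgeR). Tgfbr1, a type I receptor of TGF-beta, was lower by log2 -0.66 ± 0.13 (SE; adjusted p = 0.0015, edgeR). Of 11 other tested WNT and BMP antagonists and modulators 2 were higher (18.2%, median log2 0.27), Fstl1 (log2 1.04 ± 0.13 SE) and Kcp (0.47 ± 0.12 SE). Whether either of them opposes BMP signalling was not tested. On RPKM the count of higher WNT receptor genes was 1 to 2 and that of higher BMP receptor genes 0 to 1, and with library totals BMP receptors numbered 1. In Thy1 dKO no gene of these 5 lists or of the 2 FGF lists passed in edgeR, 12 of them had an unadjusted p under 0.05, and DESeq2 called 1.

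The test of the difference between populations passed, with the more positive effect in cKit+ spermatogonia, for Etv5 and Spry1 in the FGF list, for Gli1 and Gas1 in the hedgehog list, for Fzd2 and Fzd8 among the WNT receptors and for Tcf7l2, Id3 and Fstl1. It passed with the more negative effect in cKit+ spermatogonia for Fzd10 (log2 -2.92 ± 0.77 SE, adjusted p = 0.036, edgeR) and Tgfbr1 (-0.82 ± 0.18 SE, adjusted p = 0.015). Stromal markers had the more positive effect in cKit+ spermatogonia in the same test, as given above, and their part in these differences was not tested.

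**Figure D4:**
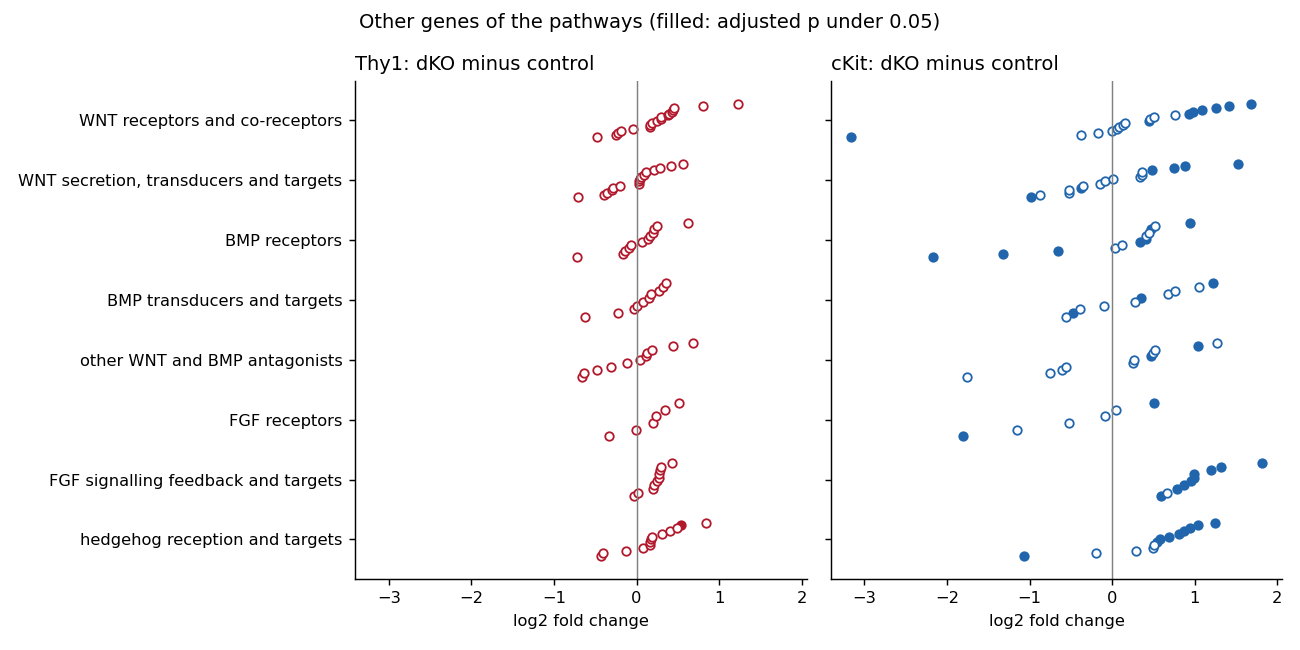
For each list of pathway genes the log2 fold changes of dKO over control are shown gene by gene for Thy1+ and cKit+ spermatogonia, with filled points past the threshold. In cKit+ spermatogonia 9 of 10 FGF feedback and target genes and 8 of 13 hedgehog genes are filled above 0.

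**Figure D5:**
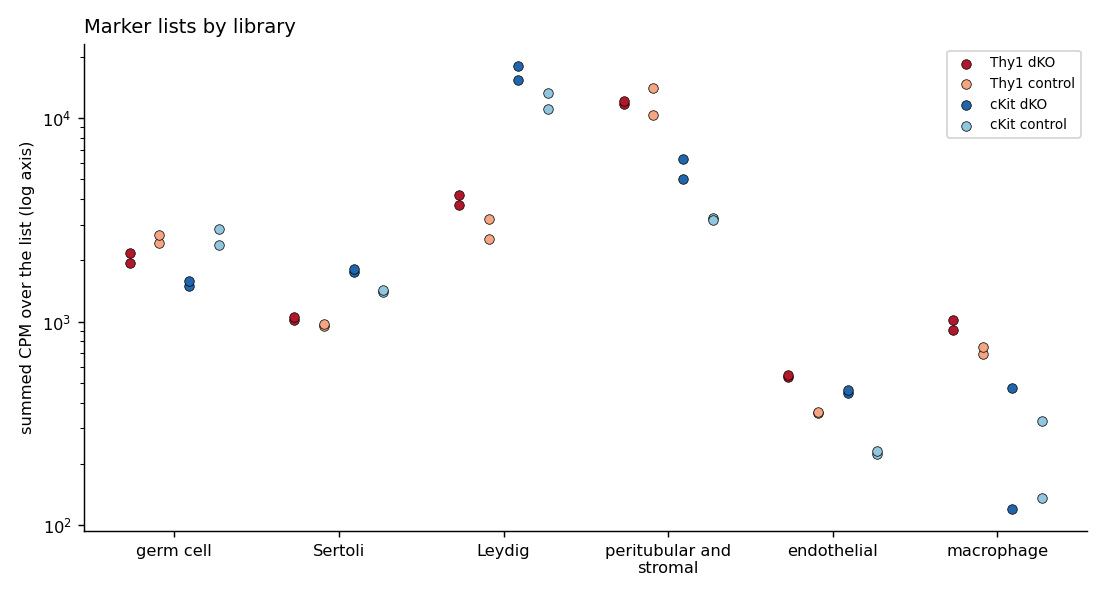
Summed CPM of each marker list is shown by library on a log scale, in the order Thy1 dKO, Thy1 control, cKit dKO and cKit control. Stromal markers sum to 5030 to 6280 CPM in cKit dKO and 3150 to 3230 CPM in cKit control, and germ cell markers to 1500 to 1590 and 2380 to 2850 CPM. Kit alone holds 1059 and 1012 CPM of the germ cell sums in cKit dKO and 1049 and 938 CPM in cKit control.

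The 39 members that did not enter the test had at most 23 counts in any library, and 50 to 101 counts in all per library. At 0 in every library were Bmp10, Gdf5, Fgf20 and Gdf1. The symbol Gdf1 shares an entry with Cers1 that held 456 counts over the 8 libraries, and reads of the 2 genes cannot be told apart there. Going by the presence of counts alone, Fgf15, Fgf16, Fgf22 and Gdf3 had 0 counts in both Thy1 control libraries and 1 to 7 counts in each Thy1 dKO library. That is 4 of the 13 members at 0 in Thy1 control (30.8%), against 3.94% of the genes at 0 there, and in the opposite direction Fgf14, Nog, Wnt1 and Wnt3a made 4 of 12 (33.3%), against 3.42%. In cKit dKO, Fgf21 and Gdf6 had counts in both libraries with none in cKit control, 2 of 15 (13.3%) against 1.81% of genes, and Fgf3 and Wnt3a the reverse, 2 of 18 (11.1%) against 7.26%. The members thus appeared and vanished in like numbers, at counts where single reads decide, and no test was made of them.

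There were 9 pairs of members within 100 kb of each other with no other member between them. In 5 of these pairs 1 gene had enough counts to be tested and the other did not, and in the other 4 neither had, at 18 counts or fewer over the 8 libraries. Wnt6 and Wnt10a, 6.7 kb apart on chromosome 1, had 3455 and 59 counts over the 8 libraries. Wnt9a and Wnt3a, 16.2 kb apart on chromosome 11, had 600 and 13 counts. Gdf10 and Gdf2, 5.8 kb apart on chromosome 14, had 607 and 3 counts. Wnt3 and Wnt9b, 24.4 kb apart on chromosome 11, had 153 and 27 counts, and Dhh and Wnt1, 99.2 kb apart on chromosome 15, had 441 and 6.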

How the data were processed

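The labels' protocols give NuGEN Ovation amplification of total RNA from Thy1+ and cKit+ spermatogonia, followed by Nextera XT library construction and Illumina HiSeq sequencing. The submitters' processing notes name STAR 2.4.2a and mm10; the counting tool and its strand setting are not given in the sources used here. The deposited tables hold raw counts and RPKM values per RefSeq transcript entry, per the file headers. Counts and RPKM values were summed per gene symbol.

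Genes passing filterByExpr (14907) were tested with edgeR 4.0.16 (R 4.3.3): TMM scaling, a quasi-likelihood fit over all 8 libraries with 1 coefficient per group, Benjamini-Hochberg adjustment over all genes tested, and a threshold of 0.05. CPM values use the TMM-scaled totals. Alternatives were DESeq2 1.42.0, limma 3.58.1 on log2(RPKM + 0.1) and log2(RPKM + 1), other scalings and filters, the highest entry per symbol, a replicate block and leaving out each library. SE values were calculated as the absolute log2 difference divided by the square root of the quasi-likelihood F. They include the spread between libraries, and SD values are that between the 2 libraries of a group. The floor covers the counting error of a count of 0 only. Fold changes per list are described by counts and medians.

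Named members are those past the threshold in any comparison, those at 0 in both libraries of a group with at least 20 counts in the other, and the top 10 by mean RPKM; from the other lists at most 4 genes, those of smallest p in cKit dKO, are given with values. Genes named outside this rule (Dhh, Shh, Sfrp4, Frzb, Dkk2, Kit, Gfra1, Spry1, Gas1, Cdon, the untested members and neighbours) were chosen after their values were seen. The members and lists were chosen with earlier results of these data known. RefSeq promoter windows were found for 52 of the 75 members, 44 of them within 2 bases of the deposited start.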

Additional observations from a re-analysis of the deposited data

Results flagged for a closer look

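For 3 members the test of the difference between the dKO effects in cKit+ and in Thy1+ spermatogonia passed (edgeR, adjusted p under 0.05). The difference (cKit+ minus Thy1+) was 1.29 on the log2 scale for Dkk3, 1.05 for Sfrp2 and 0.69 for Sfrp1. Dkk3 averaged 28.1 ± 8.33 CPM in cKit dKO and 19.96 ± 0.799 CPM in cKit control, and 27.3 ± 4.34 CPM in Thy1 dKO and 47.3 ± 3.53 CPM in Thy1 control (SD, n = 2 each). Each of the 3 calls was lost in at least 3 of the 8 fits that left out 1 library, and with the highest entry per symbol or the RPKM values; that of Sfrp1 was lost with library totals too.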

How the results depend on the processing

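No called value changed sign under the alternatives run. In Thy1 dKO, the 93 genes called became 563 with no filter on low counts, 870 with only the 4 Thy1 libraries in the fit, 9 with the highest entry per symbol, 330 with DESeq2, 6 and 24 with limma on RPKM (pseudocounts 0.1 and 1), and 3 to 400 with 1 library left out. The 1 member higher there became 2 with no filter, 3 with the 4 libraries, 0 with the highest entry and 0 on RPKM (0 to 1 with 1 library left out), and the 0 lower became 1 with no filter, with the 4 libraries and with DESeq2 (0 to 1). In cKit dKO, the 4259 genes called ranged between 2386 and 3972 with 1 library left out. The 8 members higher became 3 on RPKM at either pseudocount (7 to 12 with 1 library left out), and the 1 lower became 2 with no filter and on RPKM (1 to 2). On RPKM the calls of Bmp1, Bmp2, Sfrp1, Wnt5a and Wnt9a were lost, that of Bmp2 also with DESeq2 and that of Wnt9a also with library totals, with the 4 cKit libraries and with the highest entry; the median of all genes was then -0.29 (pseudocount 0.1) and -0.16 (pseudocount 1), and -0.10 with library totals, against 0.03 with TMM.

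Between the control populations, the 2939 genes called became 1849 with the replicate block and 1717 to 3575 with 1 library left out; the block ended the call of Bmp1, and members higher ranged from 3 to 6 and lower from 7 to 12. On RPKM (pseudocount 0.1) 72.7% of the calls were higher, against 48.0% with TMM. For the difference of the effects, the 883 genes became 1490 with no filter and 433 with the highest entry (219 to 1268 with 1 library left out). The 3 members became 7 with no filter, 2 with library totals, 0 with the highest entry, 5 with the replicate block and 0 on RPKM (0 to 6), and the 0 with the opposite sign became 1 with no filter and 1 and 2 on RPKM (0 to 1). The cause of these changes was not tested.

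Within a population, same-numbered dKO and control libraries did not deviate together (r = -0.0374 in Thy1+ and 0.0272 in cKit+ spermatogonia), so they are not read as pairs. Whether same-numbered Thy1+ and cKit+ libraries of a genotype form pairs was not checked, and the replicate block was set within each population. With the replicate block 85 genes were called in Thy1 dKO, 3988 in cKit dKO and 790 for the difference, and the members higher were 1 in Thy1 dKO and 10 in cKit dKO. Of the 9 member calls in cKit dKO, 6 passed in each fit with 1 library left out and 4 in each of the other settings. With 2 libraries a group, a difference under about the spread between libraries was not detectable, and a p that missed the threshold does not show that values did not differ.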
